A study of Mus musculus with 16 samples.

Results

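The genes described here encode subunits of respiratory chain complexes II, III and IV, of ATP synthase (complex V), and cytochrome c. They were taken by symbol from the probe sets that carry exactly 1 gene symbol: the 4 Sdh genes of succinate dehydrogenase, Cyc1 and the Uqcr genes, Cycs, the structural Cox genes from Cox4 to Cox8, and the Atp5 genes. Assembly factors were left out, and each gene was represented by its probe set with the highest mean over all arrays. This gave 48 genes of 19938, with 4 in complex II, 9 in complex III, 17 in complex IV, 17 in complex V, and Cycs. They have 70 probe sets of 21789. Cox7c could not be included, because its probe sets also carry a second symbol. Of the 48 genes 46 passed the filter on low values (a mean log2 value of at least 6.18), while the testis isoforms Cox7b2 and Cox8c fell below it.

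Gastrocnemius, a calf muscle, was taken from 16 male mice and measured with 1 Affymetrix Mouse Gene 1.0 array each. Calcineurin, a phosphatase switched on by calcium, dephosphorylates NFAT transcription factors, and the mice belong to a pair of lines in which a calcineurin subunit was deleted. One line lacks Ppp3cb, which encodes a catalytic subunit, in the whole body (knockout, KO). In the other, a Cre recombinase under Mlc1f (Myl1) control removes Ppp3r1, the regulatory subunit, from skeletal muscle. Each line has 4 KO mice and 4 wild-type (WT) littermates. All 16 mice, WT included, are on a C57Bl6J background and had been fed a diet in which butter fat gave 40% of the calories for at least 8 weeks, and no group on another diet was analysed here. The labels do not say whether WT mice of the Ppp3r1 line carry the Cre, so an effect of the Cre and loss of Ppp3r1 cannot be told apart if they do not. Whole muscle also holds vessels, fat, nerve and tendon, and in such tissue fewer fibres of a type and less RNA per fibre cannot be told apart.

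Electrons from succinate enter the chain at complex II, pass by way of ubiquinone to complex III, travel on cytochrome c to complex IV, and there reduce oxygen. Complexes III and IV pump protons as they do so, and complex V uses the gradient to make ATP. Oxidative muscle fibres are rich in these proteins, several complex IV subunits exist as separate genes for muscle and for other tissues, and nuclear respiratory factors, GABPA, ERR and YY1 are known regulators of many of the genes. Values below are log2 intensities, and each difference is a difference of group means on that log2 scale.

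Before any result, the targeted genes were read as a check of the labels. In the Ppp3cb line 4 arrays went against their label: Ppp3cb lay between 10.22 and 10.48 on the arrays labelled KO of animals 5 and 18 and those labelled WT of animals 23 and 24, and between 11.61 and 11.80 on the arrays labelled KO of animals 6 and 9 and WT of animals 2 and 12. In the Ppp3r1 line, Ppp3r1 lay between 8.98 and 9.28 in KO and between 9.36 and 9.64 in WT, without overlap. The difference was small, at -0.32 (SE 0.13, limma adjusted p = 0.372), so Ppp3r1 itself was not called. Myl1, under whose control the Cre stands, lay between 13.78 and 13.91 in KO of that line and between 13.99 and 14.07 in WT. Its difference was -0.17 (SE 0.05, limma adjusted p = 0.363), and whether it bears on which mice carry the Cre was not tested. Muscle fibre markers were present on every array, with a summed log2 level between 16.48 and 16.62. Array medians were 6.68 to 6.77 in the Ppp3cb line and 6.81 to 6.94 in the Ppp3r1 line.

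The promoters of 4 members on which the results turn are shown first: Cycs, Uqcr11 and Atp5pb had the smallest p-values in the Ppp3r1 comparison, and Cox8a parted most by Ppp3cb value. Each is the 250 bases before the RefSeq start in GRCm38.p6, on the minus strand, printed 5′ to 3′. Capitals mark matches, on either strand, to the letters of NRF1 (a GC-rich palindrome), the ETS family with GABPA (CCGGAAG), ERR (AAGGTCA), YY1 (ATGGCG) or CREB (TGACGT), the last of which was added after the sequences had been read. They lie at chr6:50566570-50566819 for Cycs, chr10:80406822-80407071 for Uqcr11, chr3:105959264-105959513 for Atp5pb and chr19:7217617-7217866 for Cox8a.
Cycs: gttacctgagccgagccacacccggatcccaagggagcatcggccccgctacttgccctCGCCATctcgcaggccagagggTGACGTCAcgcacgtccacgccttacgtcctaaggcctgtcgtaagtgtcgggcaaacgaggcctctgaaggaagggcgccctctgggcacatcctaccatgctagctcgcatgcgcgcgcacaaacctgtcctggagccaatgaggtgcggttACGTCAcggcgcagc
Uqcr11: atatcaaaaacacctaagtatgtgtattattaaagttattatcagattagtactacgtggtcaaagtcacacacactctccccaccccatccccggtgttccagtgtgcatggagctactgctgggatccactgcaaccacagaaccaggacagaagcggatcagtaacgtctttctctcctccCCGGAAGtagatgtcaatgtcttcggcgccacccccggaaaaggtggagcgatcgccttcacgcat
Atp5pb: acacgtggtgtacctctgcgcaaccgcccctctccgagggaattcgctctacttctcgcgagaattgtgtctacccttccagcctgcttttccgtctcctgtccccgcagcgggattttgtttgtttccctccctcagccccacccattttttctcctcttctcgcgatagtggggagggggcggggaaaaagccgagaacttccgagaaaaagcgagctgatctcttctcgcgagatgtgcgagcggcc
Cox8a: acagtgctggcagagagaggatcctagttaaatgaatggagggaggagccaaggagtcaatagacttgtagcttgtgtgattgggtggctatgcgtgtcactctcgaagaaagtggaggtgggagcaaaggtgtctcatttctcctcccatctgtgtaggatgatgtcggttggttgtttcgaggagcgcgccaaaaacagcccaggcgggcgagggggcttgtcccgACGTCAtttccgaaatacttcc
The Cycs window held 1 YY1 match and 3 CREB matches, of which a pair share the palindrome TGACGTCA. It held 0 exact matches to the NRF1 letters. Inexact matches were not searched, so an NRF1 site in this GC-rich window is not excluded. Uqcr11 held 1 ETS match, Cox8a 1 CREB match and Atp5pb none of these letters. Over 39 promoters found for 36 of the 48 members, 17.95% held the NRF1 letters against 4.977% of all 32851 promoters, and 23.08% held the ETS letters against 6.907%. YY1 letters were in 12.82% against 5.726%, CREB letters in 15.38% against 6.469%, and ERR letters in 5.128% against 4.079%. The core of an NFAT site (GGAAAA) was in 20.51% of the members' promoters and 20.43% of all. Not marked in capitals, it had 2 matches in the Atp5pb window, 1 in Uqcr11 and 0 in Cycs and Cox8a. A match describes the letters only.

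Ppp3r1 KO muscle was compared with WT littermates. Of the 46 members 40 had a lower mean in KO, where 45.8% of all 15252 tested probe sets did, and the median log2 difference was -0.15 against 0.02 over all tested probe sets. Among probe sets above the median level, 51.6% were lower, with a median of -0.01. No member was called at a limma adjusted p under 0.05 (background 0.00656%). At an unadjusted p under 0.05, 9 of 46 members were lower and 0 higher, beside 5.35% and 6.37% of all probe sets. With the Ppp3r1 line fitted alone, 6 members were lower at that threshold, beside 8.77% of all probe sets in either direction. In 3 members, Cycs, Atp5pb and Uqcrb, no KO array reached the lowest WT array (1.71% of all probe sets), and in 0 members did every KO array exceed every WT array (3.15%). The p-values of members are not independent, since their values move together, as given below.

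In complex III 9 of 9 members had a lower mean in KO, with a median of -0.22. Complex II had 4 of 4 (median -0.17), complex V 16 of 17 (median -0.14) and complex IV 10 of 15 (median -0.05). Cytochrome c differed by -0.27. The plot of log2 differences by complex shows that members with the opposite sign lie mostly in complex IV.

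**Figure D1:**
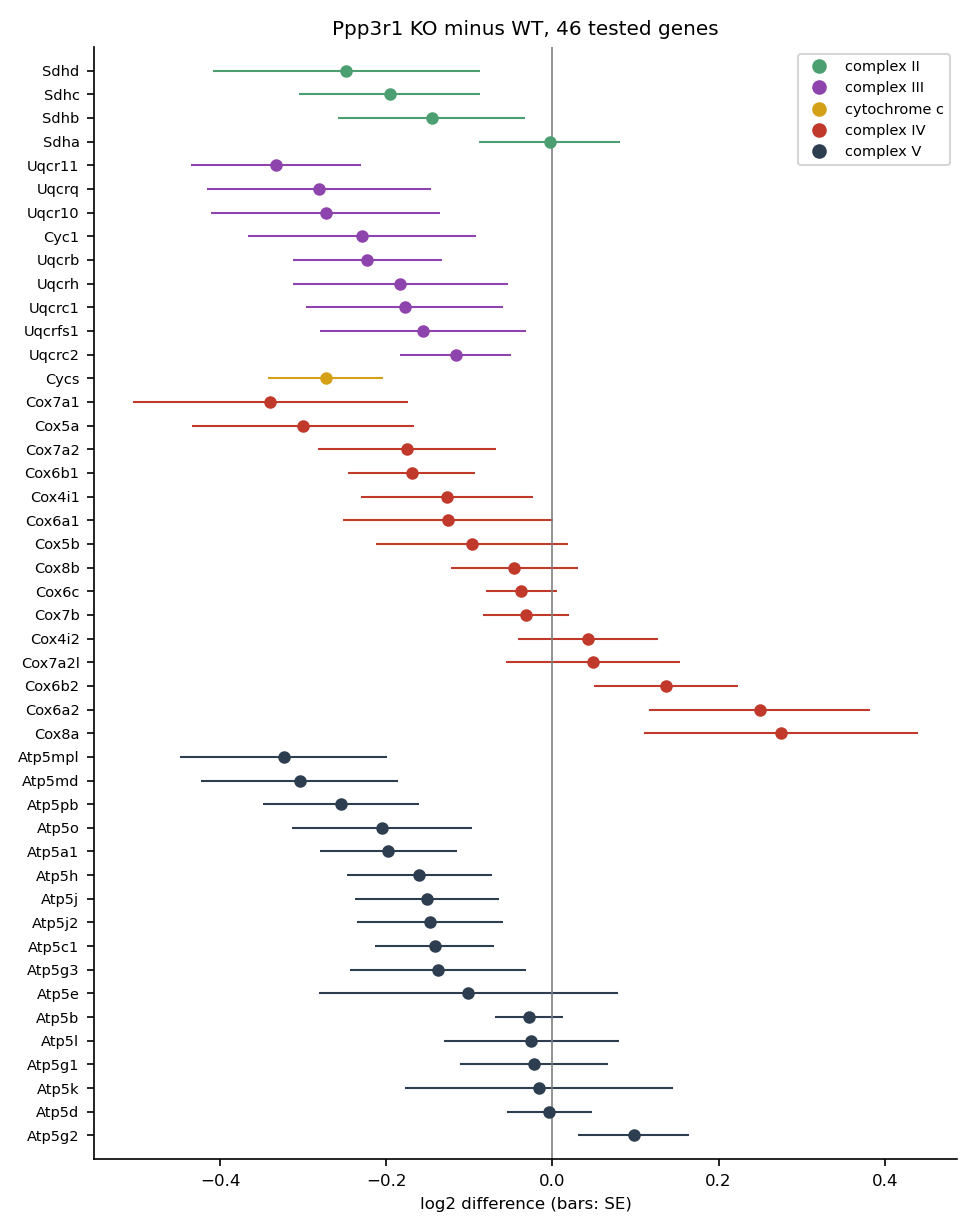
Log2 difference, Ppp3r1 KO minus WT, of each of the 46 tested genes (points) with its SE (bars), grouped by complex. Of the points 40 lie left of 0, and 5 of the 6 on the right belong to complex IV.

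The KO arrays did not lie at 1 level. The mean log2 value over all 48 members was 10.92 in KO animal 331, 11.21 in 335, 10.96 in 414 and 11.29 in 416. In WT it was 11.28 in animal 334, 11.17 in 336, 11.17 in 413 and 11.22 in 415. KO animals 331 and 414 were thus below every WT array, while 335 and 416 lay within or just above the WT range. The KO group thus had a mean of 11.10 ± 0.18 and the WT group one of 11.21 ± 0.05 (SD, n = 4 each). Animals 331 and 414 were the lowest 2 of the 8 arrays in 32 of 46 members, and the SD in KO exceeded that in WT in 34 of 46. Each SE and limma p-value given here rests on 1 variance per probe set, shared by all 4 groups. Where Ppp3r1 KO spreads most, the SE can thus be too small for this comparison. For Cyc1 the SD was 0.42 in Ppp3r1 KO, 0.09 in Ppp3r1 WT, 0.02 in Ppp3cb KO and 0.10 in Ppp3cb WT. Without KO animal 331 the median over members was -0.07 (35 lower), without 414 it was -0.09 (36 lower), and without 416 it was -0.23 (40 lower). With array weights, by which limma gives variable arrays less influence, it was -0.05 (33 lower).

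**Figure D2:**
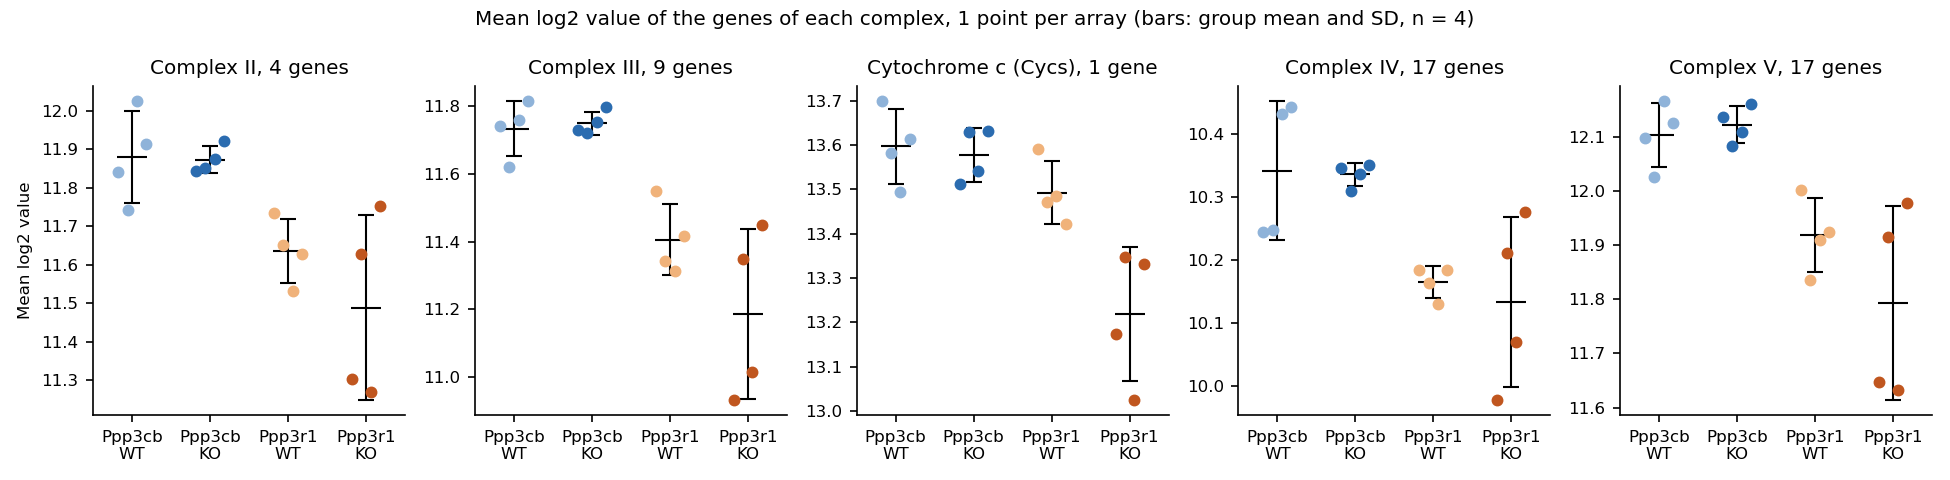
Mean log2 value of the genes of each complex on each array (points), by group, with the group mean and SD (bars, n = 4); the vertical axes differ between panels and do not start at 0. Of the Ppp3r1 KO arrays, 2 lie below the WT arrays and 2 among or above them in complexes II, III, IV and V, while all 4 lie below in cytochrome c.

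The complexes moved together from array to array. After each group's mean was taken off, the per-array means of complexes II, III and V correlated at r between 0.924 and 0.948 over the 16 arrays, which share their normalization, and complex IV with those 3 at 0.817 to 0.872. Cytochrome c correlated at 0.575 to 0.673 with complexes II, III and V and at 0.275 with complex IV. The spread within groups was widest in Ppp3r1 KO, so its arrays weigh most in these correlations. For complex III the SD was 0.25 there, 0.11 in Ppp3r1 WT, 0.03 in Ppp3cb KO and 0.08 in Ppp3cb WT. For complex II these were 0.24, 0.08, 0.04 and 0.12. The correlations are descriptions, with no test.

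Complex I subunits had their lowest summed log2 levels in KO animals 331 and 414, at 16.15 and 16.19. The 5 endothelial markers had a summed level of 10.77 in animal 331, 11.32 in 335, 11.18 in 414 and 11.69 in 416, against 11.18 to 11.59 in WT. The 6 adipocyte markers ranged from 10.78 to 12.16 in KO and from 10.85 to 11.92 in WT, with 331 at 11.66 and 414 at 10.80. As mean log2 values, the endothelial markers were 8.34 in animal 331, 8.77 in 335, 8.68 in 414 and 9.18 in 416. In WT they were 8.70 to 9.06. The 6 fibroblast and tendon markers had means of 8.22, 8.54, 8.12 and 8.53 in those KO animals, against 8.44 to 8.89 in WT. By both means, 331 and 414 lay below every other array of the line. Other lists were not low there. The 3 cardiac markers had means of 7.05 in 331 and 6.99 in 414, against 6.75 to 6.89 on the line's other arrays. The 6 macrophage markers had 6.76 and 6.86, against 6.51 to 6.86. The 2 Schwann cell markers had 9.20 and 9.22, against 9.04 to 9.46. By summed level, the fibroblast and tendon markers ranged from 12.62 to 12.72 in KO and from 12.58 to 13.08 in WT. The 6 muscle fibre markers lay between 16.5063 and 16.5771 in KO and between 16.5798 and 16.6245 in WT, close together but without overlap. All 6 had lower means in KO (median -0.05), and 0 were called. The 3 brown adipocyte markers fell below the filter. The part of these in the members' differences was not tested.

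Cycs is cytochrome c itself, the soluble carrier between complexes III and IV. Its log2 value was 13.17 in KO animal 331, 13.35 in 335, 13.02 in 414 and 13.33 in 416, against 13.59 in WT animal 334, 13.47 in 336, 13.49 in 413 and 13.42 in 415. The highest KO array was below the lowest WT array. The difference was -0.27 (SE 0.07, a 1.21-fold difference), with a two-sided exact permutation p of 0.0286, the smallest that 4 against 4 arrays allow (0.587 after Benjamini-Hochberg adjustment over all probe sets). The limma p was 0.000918 and the adjusted p 0.363, which ranged from 0.0821 to 0.843 over the alternatives, and the difference was -0.32 to -0.21 with each array left out in turn. All 3 probe sets of Cycs had lower means in KO, by -0.47 to -0.27. The -0.47 came from a probe set with a mean log2 value of 6.60, near the filter. Genes such as Cycs have near-identical processed copies in the genome, and whether the probe sets read them was not tested.

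In complex II, Sdha is the flavoprotein that oxidizes succinate, Sdhb carries the iron-sulphur clusters, and Sdhc and Sdhd anchor the enzyme in the membrane. Sdha was the same in both groups to the second decimal, at a difference of -0.00 (SE 0.08). The others had differences of -0.15 (SE 0.11) for Sdhb, -0.20 (SE 0.11) for Sdhc and -0.25 (SE 0.16) for Sdhd. Sdhd was 10.50 in KO animal 331, 10.81 in 335, 10.11 in 414 and 10.96 in 416, against 10.74 to 10.97 in WT, so its groups overlapped.

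In complex III, Uqcr11 is a small subunit of the membrane part. Its log2 value was 11.31 in KO animal 331, 11.67 in 335, 11.10 in 414 and 11.47 in 416, against 11.87 in WT animal 334, 11.64 in 336, 11.56 in 413 and 11.81 in 415. Of the KO arrays only 335 reached into the WT range. The difference was -0.33 (SE 0.10, limma adjusted p = 0.363, exact permutation p = 0.0857), and -0.43 to -0.24 with each array left out.
Uqcrb, which lies near the ubiquinone site, was between 12.59 and 12.70 on the KO arrays and between 12.80 and 13.12 on the WT arrays. The difference was -0.22 (SE 0.09, limma adjusted p = 0.373). WT animal 334, at 13.12, stood apart from the other WT arrays, and leaving out single arrays gave -0.25 to -0.14. The small subunits Uqcrq and Uqcr10 had -0.28 (SE 0.13) and -0.27 (SE 0.14). Cyc1, the cytochrome c1 that hands electrons to cytochrome c, had -0.23 (SE 0.14): KO animals 331 and 414 read 11.44 and 11.51, below the WT range of 11.97 to 12.14, 335 read 12.08 within it, and 416 read 12.29 above it. The core proteins Uqcrc1 and Uqcrc2 had -0.18 (SE 0.12) and -0.12 (SE 0.07), the hinge protein Uqcrh -0.18 (SE 0.13) and the Rieske iron-sulphur protein Uqcrfs1 -0.16 (SE 0.12).

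In complex IV the tissue isoforms did not share a direction. Cox7a1, the heart and muscle form, was 11.59 in KO animal 331, 12.34 in 335, 11.54 in 414 and 12.53 in 416, against 12.25 to 12.47 in WT. Its difference was -0.34 (SE 0.17, limma adjusted p = 0.433), or -0.19 without animal 414. Its partner of other tissues, Cox7a2, had -0.18 (SE 0.11).
Cox6a2, also a heart and muscle form, was 12.55 in KO animal 331, 12.80 in 335, 12.89 in 414 and 12.95 in 416, against 12.25 in WT animal 334, 12.45 in 336, 12.68 in 413 and 12.82 in 415. The groups overlapped, with the higher mean in KO by 0.25 (SE 0.13, limma adjusted p = 0.465). Its partner Cox6a1 had -0.13 (SE 0.13).
Cox8a, the widely expressed form, was 9.66 in KO animal 331, 9.81 in 335, 9.97 in 414 and 10.03 in 416, against 9.55 in WT animal 334, 9.48 in 336, 9.49 in 413 and 9.84 in 415. Only WT animal 415 reached into the KO range, and the difference was 0.28 (SE 0.16, limma adjusted p = 0.507). The muscle form Cox8b had -0.05 (SE 0.08), and its sign turned in some omissions (-0.11 to 0.04).

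**Figure D3:**
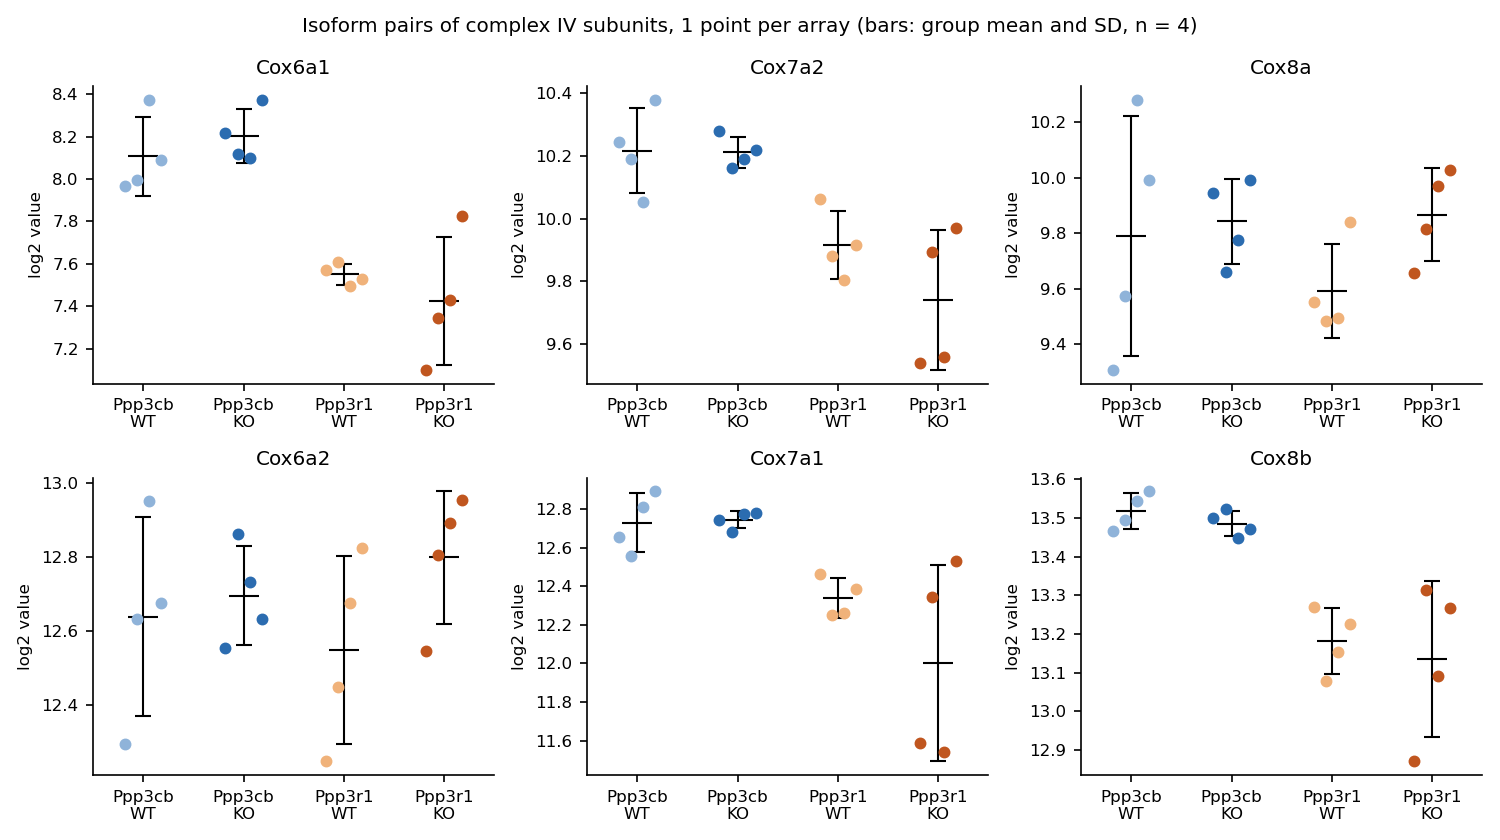
Log2 values of Cox6a1 and Cox6a2, Cox7a2 and Cox7a1, and Cox8a and Cox8b on each array (points), by group, with group mean and SD (bars, n = 4); the vertical axes differ between panels and do not start at 0. In Ppp3r1 KO, Cox7a1 lies at 11.54 and 11.59 on 2 arrays and at 12.34 and 12.53 on the others, while Cox6a2 and Cox8a have higher means than in WT.

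Of the remaining complex IV genes, Cox5a, a nuclear subunit near the catalytic core, had -0.30 (SE 0.13) and ranged from -0.44 to -0.16 with each array left out. Cox6b1, which faces the intermembrane space, had -0.17 (SE 0.08). Cox4i1 had -0.13 (SE 0.10) and its counterpart Cox4i2, known from lung, 0.04 (SE 0.08). Cox6b2, a testis form, had 0.14 (SE 0.09) at a mean log2 value close to the filter. Cox7a2l, which links complexes III and IV, had 0.05 (SE 0.10), and its probe sets gave opposite signs. Cox5b, Cox6c and Cox7b had -0.10, -0.04 and -0.03. Cox6c lay between 13.77 and 14.08 over all 16 arrays, and whether values so near the top of the scale understate differences was not tested.

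In complex V, Atp5pb is subunit b of the peripheral stalk. It was 11.60 in KO animal 331, 11.65 in 335, 11.46 in 414 and 11.70 in 416, against 12.07 in WT animal 334, 11.73 in 336, 11.83 in 413 and 11.79 in 415. No KO array reached the WT range, the nearest by little, and the difference was -0.25 (SE 0.09, limma adjusted p = 0.366, exact permutation p = 0.0286). The small membrane subunits Atp5mpl and Atp5md had -0.32 (SE 0.12) and -0.30 (SE 0.12), with overlapping groups.
In the catalytic head, Atp5a1, the alpha subunit, had -0.20 (SE 0.08), the gamma subunit Atp5c1 -0.14 (SE 0.07), and the beta subunit Atp5b -0.03 (SE 0.04). The delta and epsilon subunits Atp5d and Atp5e had -0.00 (SE 0.05) and -0.10 (SE 0.18). The 3 genes that encode the same c subunit of the rotor differed among themselves, with 0.10 (SE 0.07) for Atp5g2, -0.02 (SE 0.09) for Atp5g1 and -0.14 (SE 0.11) for Atp5g3. In the stalk, Atp5o had -0.21 (SE 0.11), Atp5h -0.16 (SE 0.09) and Atp5j -0.15 (SE 0.09), while the membrane subunits Atp5j2, Atp5l and Atp5k had -0.15, -0.03 and -0.02.

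Related genes were read from lists chosen beside the members. Of 35 complex I subunits 33 were lower in Ppp3r1 KO (median -0.18), and 0 were called. Ndufs5 had -0.51 (SE 0.14), Ndufb6 -0.33 (SE 0.10) and the catalytic-arm subunit Ndufs3 -0.20 (SE 0.06). Assembly factors of complexes II to V were lower in 26 of 32 (median -0.14, 0 called), with Atpaf1, which helps to build the ATP synthase head, at -0.48 (SE 0.12), Coa3 at -0.37 (SE 0.11) and Taco1 at -0.61 (SE 0.20). Carriers that exchange adenine nucleotides and phosphate were lower in 5 of 8, with Slc25a4 at -0.16 (SE 0.06) and the outer membrane channel Vdac1 at -0.13 (SE 0.06). Regulators of respiratory genes were lower in 9 of 17 (median -0.06, 0 called), with the nuclear receptor Esrrg at -0.47 (SE 0.16) and Gabpa at -0.22 (SE 0.12), and with Ppard at 0.19 (SE 0.10). The 1 probe set called in this comparison was Myh2, the myosin heavy chain of oxidative type IIa fibres, at -2.08 (SE 0.25, limma adjusted p = 0.00186). Myh2 was low on all 4 KO arrays, between 9.46 and 10.71 against 11.30 to 12.40 in WT. The myosin heavy chain genes did not share this direction: of 4 read, 2 had lower and 2 higher means in KO. Myh7 had 0.51 (SE 0.55), and Myh1 lay between 12.87 and 13.25 in KO against 12.47 to 12.76 in WT.

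In the Ppp3cb line the labelled KO and WT arrays were compared, although 4 labels go against Ppp3cb. Members lay on both sides, with 20 lower and 26 higher of 46 (44.1% of all probe sets lower) and a median of 0.01. The number lower was 13 without the array labelled WT of animal 24 and 30 without that of animal 12. No member was called (background 0%), and 0 had an unadjusted p under 0.05, beside 1.73% of all probe sets (0.859% lower and 0.872% higher). Averaged over all members, the value was 11.43 ± 0.03 for the KO label and 11.42 ± 0.08 for the WT label (SD, n = 4 each). The smallest p-values belonged to Atp5g2 at 0.08 (SE 0.07), Atp5e at 0.22 (SE 0.18) and Atp5mpl at -0.14 (SE 0.12). Atp5b was above WT on all 4 arrays labelled KO, by 0.04 (SE 0.04), where 0.774% of all probe sets were, and in 0 members were all 4 below (0.734%).

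When the 4 arrays that Ppp3cb contradicts were left out, 2 arrays of each label remained. Then 37 of 46 members were higher and 9 lower in KO, with a median of 0.07. Over all probe sets 44.4% were lower, with a median of 0.02. All 15 tested members of complex IV were higher, and 0 members were called (background 0.0918%). The 4 arrays that remain also enter the split by Ppp3cb value below, so the results are not independent. Atp5e had 0.68 (SE 0.21, limma adjusted p = 0.599) and Cox8a 0.53 (SE 0.17, limma adjusted p = 0.669). Cycs had -0.07.

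The 8 arrays of that line were also set out by their Ppp3cb value, below or above 11, which is not the study's grouping and is described without a test. The 4 arrays with low Ppp3cb had a higher mean in 37 of 46 members (46.5% of all probe sets had a lower one), with a median of 0.07 against 0.01 over all probe sets. All 15 tested members of complex IV were higher (median 0.09), as were 3 of 4 in complex II, 7 of 9 in complex III and 12 of 17 in complex V, whereas Cycs had -0.05.
In 6 members every low-Ppp3cb array lay above every high one, beside 6.58% of all probe sets, and 0 lay below, beside 5.58%. Cox8a was 9.95 in animal 5, 9.99 in 18, 10.28 in 23 and 9.99 in 24, against 9.66 in animal 6, 9.78 in 9, 9.31 in 2 and 9.57 in 12. The groups parted by a mean of 0.47, the widest of the 6.
The others were Uqcr10 (0.22), Atp5g1 (0.20), Atp5o (0.15), Atp5g3 (0.14) and Cox6b1 (0.10). Atp5g1 ranged from 13.69 to 13.81 against 13.45 to 13.62, and Uqcr10 from 10.44 to 10.61 against 10.13 to 10.37. With single arrays left out such members numbered 6 to 11, the most without animal 9, where 10.7% of all probe sets parted that way.

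**Figure D4:**
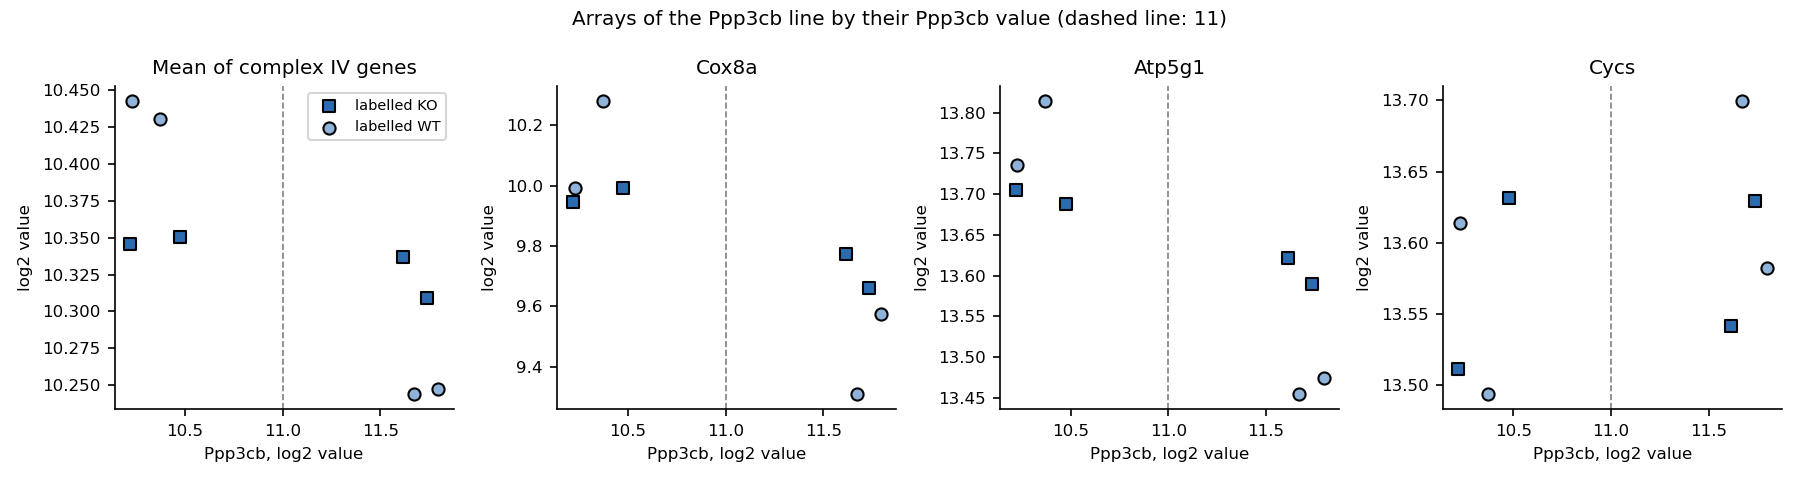
Log2 values of the complex IV mean (17 genes), Cox8a, Atp5g1 and Cycs (vertical axes, not from 0) on the 8 arrays of the Ppp3cb line against their Ppp3cb log2 value (horizontal axis), with squares for arrays labelled KO and circles for WT. Left of the dashed line at 11 lie 2 arrays of each label, and there the complex IV mean, Cox8a and Atp5g1 are higher, while Cycs overlaps.

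The KO minus WT differences of the lines were then compared as an interaction. Of 46 members 38 had the lower value in the Ppp3r1 line (49.4% of all probe sets did), with a median of -0.15. No member was called (background 0%). At an unadjusted p under 0.05 there were 3, Uqcr11 with -0.38 (SE 0.15), Cycs with -0.25 (SE 0.10) and Atp5a1 with -0.26 (SE 0.12), each with a limma adjusted p of 0.821, beside 5.31% of all probe sets (2.75% lower and 2.56% higher). Without the 4 arrays at odds, 42 of 46 were lower (median -0.19, 0 called, background 0.0459%), where 51.7% of all probe sets were. With array weights 35 were lower (median -0.059), and with single arrays left out the median ranged from -0.076, without KO animal 331, to -0.23, without KO animal 416 (33 to 41 lower). Without KO animal 414 it was -0.09. A difference between the lines was therefore not shown for any member.

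WT muscle of the Ppp3r1 line was set against WT muscle of the Ppp3cb line. The members were lower in the Ppp3r1 line in 45 of 46, where 61.5% of all probe sets were, with a median of -0.22 against -0.10 over all probe sets. That background moved with the filter: above the median level, where 45 members lie, 74.3% of probe sets were lower, with a median of -0.18 and 31.7% called lower, and with no filter 47.7% were lower, with a median of 0.02. Of the 46 members 16 fell at a limma adjusted p under 0.05 and 0 rose, beside 24.3% of all probe sets called lower and 10.7% higher (35% in all). Line, litter, array run and normalization cannot be told apart in this comparison.

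Uqcrfs1, the Rieske protein, was 9.26 in animal 334, 9.03 in 336, 8.76 in 413 and 8.92 in 415 of the Ppp3r1 line, against 9.82 in animal 2, 9.46 in 12, 9.61 in 23 and 9.72 in 24 of the Ppp3cb line. The groups did not overlap, and the difference was -0.66 (SE 0.12, limma adjusted p = 0.00157). In complex III Uqcrc2 (-0.33), Uqcr11 (-0.42) and Uqcrh (-0.45) were called too, and Sdhb (-0.39) in complex II.
In complex IV the 6 called were Cox6a1 at -0.56 (SE 0.13), Cox8b at -0.34, Cox7a2 at -0.30, Cox4i1 at -0.29, Cox6b1 at -0.24 and Cox6c at -0.16. Some calls depended on the probe set. The other Cox6c probe set had -0.10 (limma adjusted p = 0.131). Conversely, lower-level probe sets of Uqcrb (-0.23, limma adjusted p = 0.0269) and Cox7b (-0.18, limma adjusted p = 0.0494) passed, while those representing the genes did not. Both partners of the Cox6a and Cox8 pairs had lower means, with Cox6a2 at -0.09 and Cox8a at -0.20, neither called. In complex V Atp5j2 (-0.32), Atp5pb (-0.25), Atp5c1 (-0.24), Atp5g1 (-0.24) and Atp5a1 (-0.22) were called. Cox4i2 was the 1 member with a higher mean, at 0.18 (SE 0.08), and Cycs had -0.10 (SE 0.07). Its other probe sets had -0.17 and -0.78, the latter at a mean log2 value of 6.60, near the filter.

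**Figure D5:**
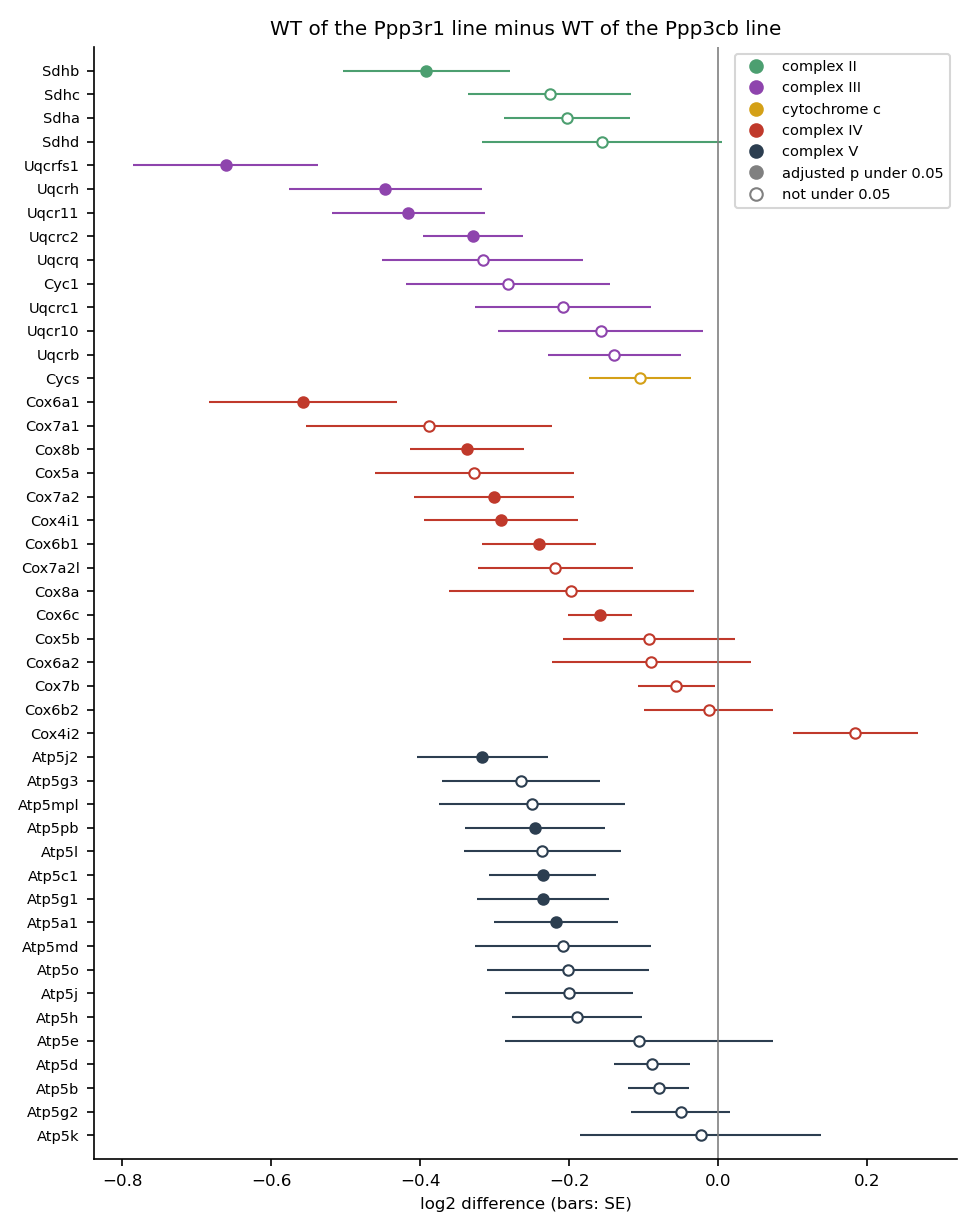
Log2 difference of each of the 46 tested genes (points) between WT muscle of the Ppp3r1 line and of the Ppp3cb line, with its SE (bars); filled points have a limma adjusted p under 0.05. Of the points 45 lie left of 0, and 16 are filled.

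In 21 of 46 members all WT arrays of the Ppp3r1 line lay below those of the Ppp3cb line, beside 22.7% of all probe sets, and in 0 members above them, beside 8.47%. Markers of other cells differed as well: all 6 macrophage markers were called lower, with summed log2 levels of 9.13 to 9.47 against 9.73 to 10.27, and both Schwann cell markers. Regulators of respiratory genes were lower in 17 of 17, 12 of them called. Their part in the members' differences was not tested. When the 4 arrays that Ppp3cb contradicts were left out, 2 WT arrays remained in the Ppp3cb line. Then 2 members were called, beside 21.8% of all probe sets: Uqcrfs1 at -0.65 (limma adjusted p = 0.0219) and Uqcrc2 at -0.28 (limma adjusted p = 0.041). Of the 46 members 39 were lower, where 59.4% of all probe sets were. With a repeated quantile normalization 9 were called, beside 25.5%. The count was 10 without the WT array of animal 24 (35.2% of all probe sets called), 10 without 336 (20.3%) and 9 without 413 (23.3%).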

How the data were processed

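RNA of gastrocnemius muscle was measured on 16 arrays, 4 in each group given by the labels, a number that limits precision. Per the submitters' processing notes, the authors used GCOS 1.0 and RMA (background correction, quantile normalization and probe set summary), and they deposited log2 values. Whether the lines were normalized together is not given in the sources used here. Ratio columns that the authors deposited beside them served as a check of the log2 values and for nothing else.

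Symbols were those of the platform's annotation, which can be old. The 15252 single-symbol probe sets with a mean at or above the 30th percentile were fitted with limma 3.58.1 in R 4.3.3 (means of 4 groups, a variance trend, 12 residual degrees of freedom), and Benjamini-Hochberg adjustment ran over all of them. For single members an exact permutation test, two-sided, compared the 4 arrays of each group. Promoters came from RefSeq (GRCm38.p6). Functions were tested on simulated data. The members, lists and rules for named genes were chosen with earlier results of these data known. Every member could be named. Those described in depth were the Sdh genes, Cycs, Cyc1, isoform pairs, c subunit genes, the smallest p-values per complex and called members. Alternatives covered filter, normalization, array weights, variance prior, probe set choice, threshold, an animal-number block and omitted arrays.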

Additional observations from a re-analysis of the deposited data

Results flagged for a closer look

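Within a group of 4 arrays, 1 array stood apart from the other 3 in 5 of 168 tests (Dixon's criterion), where chance alone gives about 1 in 20. WT animal 334 of the Ppp3r1 line had a high Uqcrb value of 13.12. In the Ppp3cb line, the array labelled WT of animal 23 had a high Sdhd value of 11.35, and that of animal 12 a low Cox7a2l value of 8.86. The array labelled KO of animal 9 had a high Cox4i1 value of 11.39, and that of animal 6 a low Uqcrq value of 10.77. Of these, animals 23, 9 and 6 are among the 4 arrays at odds with their label.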

How the results depend on the processing

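Under the alternatives, 0 member differences past the threshold turned sign, and 0 members were called in either KO comparison with each array left out. In the Ppp3r1 comparison the median ranged from -0.23 to -0.07 over all members with single arrays left out (35 to 40 lower), from -0.26 to -0.07 in complex II, -0.31 to -0.10 in complex III, -0.32 to -0.21 in cytochrome c, -0.10 to -0.02 in complex IV and -0.21 to -0.07 in complex V. With array weights the medians shrank to -0.048 in complex II, -0.078 in III, -0.025 in IV, -0.042 in V and -0.21 in cytochrome c. In the Ppp3cb labels 13 to 30 members were lower with single arrays left out, and 9 without the 4 arrays at odds. The difference between lines in complex IV was -0.16 without those 4. Between WT groups the calls moved most: 9 to 22 with single arrays left out, 9 with repeated quantile normalization (25.5% of all probe sets), 25 at an adjusted p under 0.1 (46.8%) and 2 without the 4 arrays (21.8%). By complex, single omissions gave 1 to 2 calls in complex II, 3 to 6 in III, 3 to 8 in IV and 2 to 7 in V. Complex V had 2 without a filter, with repeated quantile normalization, without a trend or with a robust prior, 3 with 1 probe set per gene, 9 at an adjusted p under 0.1 and 0 without the 4 arrays. Complex II had 0 with quantile normalization, 3 with array weights, 2 at an adjusted p under 0.1 and 0 without the 4. Complex IV had 3 with quantile normalization and 0 without the 4, and complex III 2 without the 4. For Cycs the mean over its probe sets gave -0.35 between WT groups, which includes -0.78 from the probe set near the filter. Set out by Ppp3cb value, 6 to 11 members had all low arrays above with single arrays left out, beside 8.14% to 11.2% of all probe sets. Fewer arrays enter the fits without the 4; the cause of the other shifts was not tested. No paired analysis was possible because no animal number occurs in more than 1 group. In the Ppp3r1 line the numbers form 2 series, and with the series as a block 40 members were again lower and 0 were called. In that fit 6 members had an unadjusted p under 0.05, beside 9.17% of all probe sets in either direction. Of these members 4 had a lower mean and the others a higher one. With the line fitted alone without that block, 6 had a lower mean at that threshold. The share of all probe sets there was 8.77%, which counts both directions.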
